A study of Mus musculus with 2 samples.

Results

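Long intergenic noncoding RNA (lincRNA) genes that CH12.LX cells transcribed above a fixed level are described here. A gene was included where GENCODE M21, a catalogue of mouse genes, gives it the type lincRNA and where its level reached 1 TPM in both libraries. TPM is a read count corrected for gene length and scaled to a fixed sum in each library, so it can be compared between genes. Of 43346 Ensembl entries in the tables, 2777 had the type lincRNA and 159 of these (5.73%) reached the level. Of these, 7 were left out by name: Gm42418, Gm26917, Malat1, Neat1, Snhg12, Pvt1 and Mir17hg. Gm42418 alone was at 4358 and 7852 TPM in the 2 libraries, and Gm26917 at 2416 and 3082. Leaving them out gave the 152 genes described. Their TPM values therefore chose them, and these levels and their agreement at the threshold are a description with no test.

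CH12.LX is an immortalized mouse B cell lymphoma line, here of strain B10.H-2aH-4bp/Wts, with no treatment named and with age given as unknown. Its polyadenylated RNA was sequenced as single-end reads in 2 libraries, which the labels number as biological replicates 1 and 2 and assign to separate biosamples. Both libraries form 1 group, so the data hold no comparison between conditions, and any test between them compares these libraries only. They held 22996547 and 25715408 expected counts, which are estimated reads per gene.

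All 7 B cell markers (Cd79a, Cd79b, Ms4a1, Pax5, Ebf1, Cd74 and Blnk) reached 1 TPM in both libraries, against 1 of 4 T cell, 2 of 4 myeloid, 1 of 3 erythroid and 1 of 3 stromal markers. The labelled sex is female, but both libraries held reads of 4 Y-linked genes. Eif2s3y was at 63.65 and 50.51 TPM in replicates 1 and 2, Ddx3y at 29.05 and 25.37, Kdm5d at 11.66 and 11.71 and Uty at 6.59 and 5.42. Xist, the lincRNA that coats the inactive X chromosome, had 1 count in replicate 1 and 0 in replicate 2. These values went against the female label in both libraries. Gm29650 on the Y chromosome was among the 152 genes, at 2.96 and 1.49 TPM (34 and 19 counts).

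LincRNAs are spliced or unspliced transcripts made by RNA polymerase II that lie between protein-coding genes and are not known to encode proteins. Some act in the nucleus or cytoplasm as RNA, some are the precursors of microRNAs or small nucleolar RNAs (snoRNAs), and for others the act of transcription near a neighbouring gene is what has been studied. Among those studied in lymphocytes are hosts of microRNAs: miR-142 is abundant across blood cells, and miR-155 is needed for normal responses of activated B cells.

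The microRNAs held by these genes are shown first because they tie anonymous transcripts to known regulators. A microRNA is a short RNA that recognises its targets mainly through its seed, bases 2 to 8, in capitals below. By the annotation, 13 of the 152 genes contained an annotated microRNA or small nucleolar RNA gene on their own strand, 10 of them a microRNA and 5 a snoRNA or a related small Cajal body RNA. The mature sequences below are RefSeq entries on GRCm38.p6, 5′ to 3′.
miR-142a-5p: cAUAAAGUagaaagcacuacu
miR-142a-3p: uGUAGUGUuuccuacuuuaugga
miR-155-5p: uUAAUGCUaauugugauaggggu
let-7a-5p: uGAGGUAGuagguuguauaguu
let-7d-5p: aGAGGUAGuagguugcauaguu
let-7f-5p: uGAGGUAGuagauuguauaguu
miR-191-5p: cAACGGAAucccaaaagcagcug
miR-425-5p: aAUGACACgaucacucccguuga

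The 3 let-7 sequences shared the seed GAGGUAG, which 13 of 1738 mature sequences in the RefSeq table carry. They lie in 6720427I07Rik (chr13:48532905-48546500, minus strand), which held 1.62 and 1.75 TPM. The other seeds printed occur in single hosts of this set. The libraries measured the polyadenylated host transcripts, so they give no level of any mature microRNA.

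Mir142hg, the host of miR-142 (chr11:87755577-87757270, plus strand), had the highest level of the microRNA hosts, at 101.82 TPM in replicate 1 and 64.25 in replicate 2. Mir155hg, the host of miR-155 and also known as Bic (chr16:84703167-84715245, plus strand), was at 37.92 and 39.87 TPM. By counts the order was reversed, with 382 and 268 for Mir142hg and 761 and 889 for Mir155hg. The measured Mir142hg transcript was 269 bases long, and the leading Mir155hg transcript 1264. Replicate 1 was the higher library for Mir142hg, whereas the Mir155hg values of both libraries were close. Snhg20, which holds Mir6516 and the small Cajal body RNA gene Gm26083, was at 41.88 and 35.98 TPM. A930003A15Rik, which holds the annotated microRNA gene Gm27883, was at 68.91 and 55.68 TPM. The remaining microRNA hosts were far lower. Gm21814 with Gm24307 was at 3.32 and 2.04 TPM on 13.66 and 9.34 counts, 2900076A07Rik with Mir1839 at 5.65 and 3.39 TPM, Ftx with Mir421 and Mir374b at 2.17 and 2.13, C130071C03Rik with Mir9-2 at 1.74 and 2.20, and 4833445I07Rik with Mir191 and Mir425 at 1.52 and 1.26. The hosts of miR-142 and miR-155 thus stood well above those of let-7, miR-9 and miR-191, which lay near the threshold. In RNA from many cells, a low level can mean few expressing cells or little RNA per cell, which cannot be told apart.

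Among the snoRNA hosts, Snhg6 with Snord87 was highest at 149.85 and 102.63 TPM (126 ± 33.4, SD, n = 2). Epb41l4aos with Gm23639 was at 69.20 and 54.14 and 2700038G22Rik with Snord93 at 27.25 and 26.80. Introns of such hosts are processed into snoRNAs, which guide chemical modification of ribosomal and other RNAs. Replicate 1 was the higher library for each of these 3 hosts, by the least for 2700038G22Rik.

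**Figure D1:**
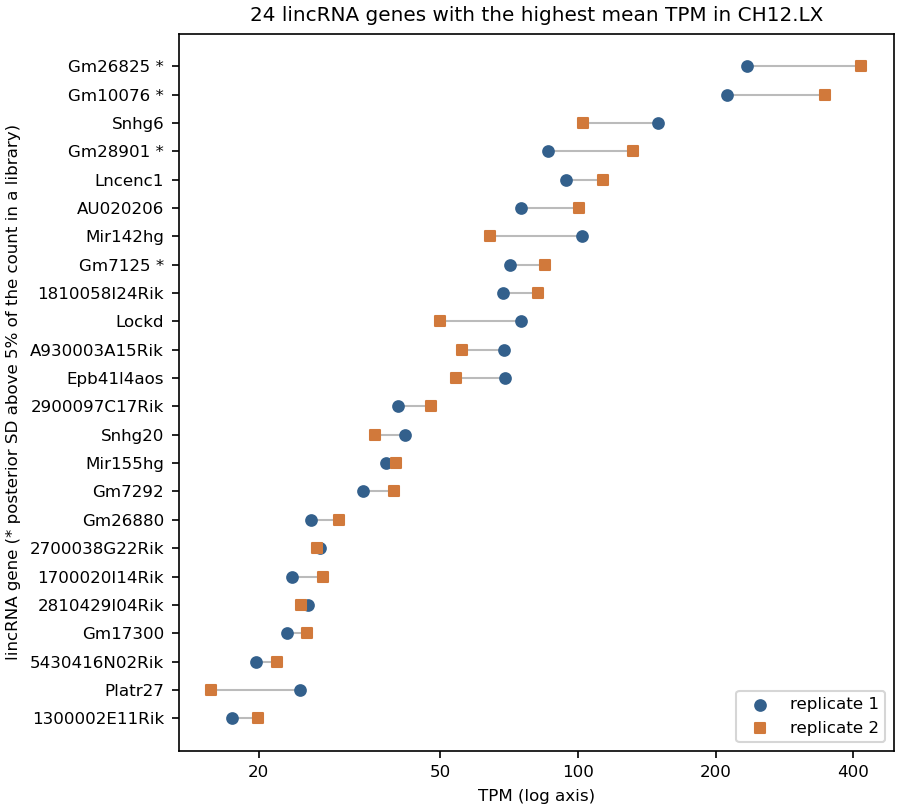
TPM (log axis) of the 24 genes with the highest mean TPM in replicate 1 (circles) and replicate 2 (squares), joined by a line for each gene; an asterisk marks a posterior SD above 5% of the count in a library. The first 2 genes are the widest apart in TPM, at 234.10 and 416.85 for Gm26825 and 211.42 and 347.87 for Gm10076, and 4 of the 24 carry the asterisk.

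The 152 genes summed to 2166 TPM in replicate 1 and 2461 TPM in replicate 2. They took 0.163% (95% Wilson interval 0.161 to 0.164) and 0.196% (0.194 to 0.198) of the counts on Ensembl genes, with intervals that cover counting error only. Most of the genes were low: 47 had a mean of 1 to 2 TPM, 49 of 2 to 5, 22 of 5 to 10, 22 of 10 to 50 and 12 of 50 or more. Their median was 2.91 TPM in replicate 1 and 3.15 in replicate 2, against 21.1 and 20.69 for the 10317 protein-coding genes detected by the same threshold. The median count was 75.5 and 79.0, and the lowest was 5.37 and 5.25, in Gm28872. The first 10 genes held 53.9% and 60.7% of the summed TPM, so a few genes carried most of the signal.

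The order was led by Gm26825 (chr5:5781530-5783636, plus strand), at 234.10 and 416.85 TPM, and by Gm10076 (chr14:105681828-105682211, plus strand), at 211.42 and 347.87. Both share most of their sequence with other genes, as described below. Lncenc1, a lincRNA first described in embryonic stem cells, was at 94.04 and 113.39 TPM with no count of uncertain origin. Gm28901 was at 85.76 and 131.80 TPM, AU020206 at 75.21 and 100.26, 1810058I24Rik at 68.66 and 81.74 and Gm7125 at 70.99 and 84.88. Replicate 2 was the higher library for all 7 of these genes. Other genes of similar level went the other way. Snhg6, Mir142hg, A930003A15Rik and Epb41l4aos, given above as small RNA hosts, and Lockd were higher in replicate 1.

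Lockd, which starts 8691 bases downstream of the start of the cell cycle inhibitor gene Cdkn1b on the same strand, was at 75.01 and 49.78 TPM. Cdkn1b itself was at 12.25 and 14.07 TPM, so Lockd lay above its neighbour in both libraries. Gm26880 was at 25.99 and 29.98 TPM, 1700020I14Rik at 23.61 and 27.70 and 2810429I04Rik at 25.63 and 24.81. Gm14005, known as Morrbid and studied as a regulator of the proapoptotic gene Bcl2l11 beside it, was at 8.13 and 7.24 TPM, with Bcl2l11 at 14.08 and 18.16. Gm14005 was named for this known neighbour after its values were seen.

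Of 52 known long noncoding RNAs listed for this purpose, 40 were found by symbol. Those annotated under another name were missed. Among them are Norad (2900097C17Rik) and Morrbid (Gm14005), which belong to the 152 and are not in the counts below. Of these 40, 11 belong to the 152 (Dubr, Epb41l4aos, Ftx, Jpx, Lncenc1, Lockd, Mir142hg, Mir155hg, Mirt1, Snhg20 and Snhg6), 12 reached the level under another annotated type, and 17 lay below it, 5 of them with 0 counts in both libraries. Ftx and Jpx, which lie beside Xist on the X chromosome and are known as its activators, were at 2.17 and 2.13 TPM and at 1.98 and 2.32 TPM, while Xist was listed at 0 TPM in both libraries. Dubr was at 2.51 and 3.44 TPM and Mirt1 at 2.15 and 1.59. Hotair, Hottip, Miat and Pantr1 were among those with 0 counts in both libraries.

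At the threshold itself, 2810414N06Rik (1.05 and 1.23 TPM), Gm12066 (1.06 and 1.63) and Gm13564 (1.29 and 1.07) lay just inside. Gm15892 (0.97 and 1.14), Ino80dos (1.46 and 0.94) and Gm26909 (0.94 and 1.89) lay just outside. At this level a gene rests on few reads, 7 and 12 for Gm12066. Of 188 lincRNA genes at 1 TPM in either library, 80.9% reached it in both, against 97.0% of protein-coding genes. A further 18 genes passed in replicate 1 alone and 18 in replicate 2 alone. The deposited 95% interval of TPM stayed at 1 or above in both libraries for 114 of the 152 genes and fell below 1 in a library for 38.

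The deposited tables also give, for each count, a posterior standard deviation, which is large where reads could come from more than 1 gene. It was 0 in both libraries for 80 of the 152 genes (52.6%), near the 56.1% of detected protein-coding genes. It exceeded 5% of the count in a library for 26 genes (17.1%), called uncertain here, against 3.28% of protein-coding genes and 9.84% of all 11880 detected genes. The difference was not only at low levels. Of the 12 lincRNA genes at 50 TPM or more 4 were uncertain (33.3%), against 1.21% of protein-coding genes at that level. Of these 4, only Gm28901 exceeded 5% in both libraries, and the others lay close to the limit in replicate 1 alone. Between 1 and 2 TPM the shares were 14.9% and 11.9%.

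Uncertain genes shared sequence with other genes. The 36-mers, all stretches of 36 bases on either strand of the annotated transcripts, were searched in the transcripts of every other gene. None of the 44 genes with no shared 36-mer was uncertain, against 11 of the 84 that shared some but under 50%, and 15 of the 24 that shared 50% or more. The largest posterior SDs belonged to Gm28872 (55.0% and 49.5% of the count, with 80.5% of its 36-mers also in Rnu11, a spliceosomal RNA), Gm26718 (41.5% and 20.4%, with 97.8% in Pgam5), Gm26527 (26.5% and 30.7%, with 98.6% in Arsb), 4930562F07Rik (22.6% and 26.1%, with 53.3% in 4930523C07Rik) and Gm26765 (24.9% and 24%, with 32.3% in Tmpo). Sharing did not always come with a large SD: Gm26880 shared 60.8% of its 36-mers and had an SD of 0.051% and 0% of the count.

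**Figure D2:**
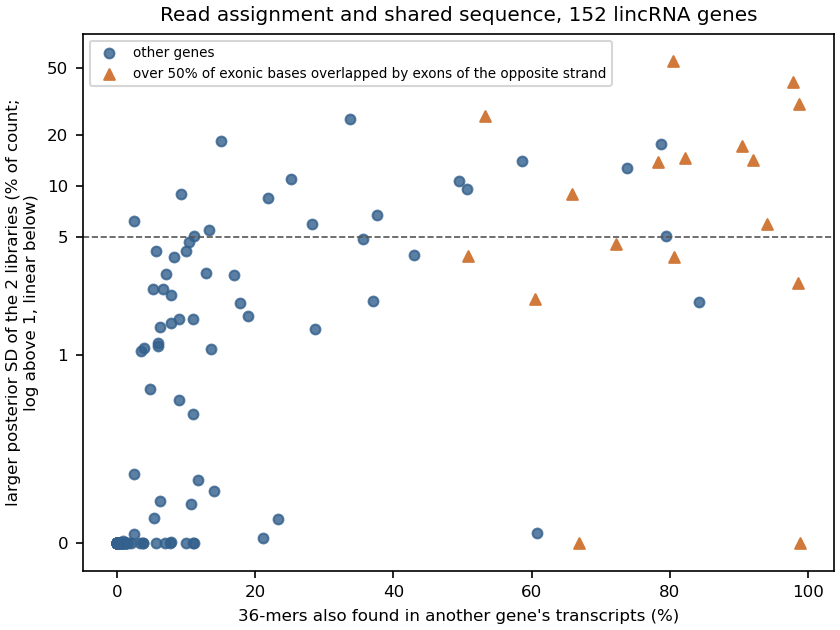
Each point is 1 of the 152 genes, by the percent of its 36-mers found in another gene (x axis) and the larger of its posterior SDs in the 2 libraries as a percent of the count (y axis, linear below 1 and log above). Triangles mark genes with over 50% of exonic bases overlapped by exons of the opposite strand, the dashed line is 5%, and Gm28872 lies highest at 55.0%.

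Of the 8 leading genes 4 were uncertain. Gm26825, with SDs of 5.99% and 3.0%, shared 94.1% of its 36-mers, most of them with the processed pseudogene Gm15459 and also with Hspa8, a chaperone gene at 5901 and 5701 TPM. Gm10076 (5.08% and 4.07%) shared 79.1% with Rpl41, a ribosomal protein gene at 4903 and 5938 TPM. Gm28901 (14.3% and 7.94%) shared 87.9% with Hnrnpf, an RNA-binding protein gene at 660.78 and 592.44 TPM. Gm7125 (5.09% and 4.14%) shared 6.82% with Hmgn2, a chromatin protein gene at 187.82 and 93.07 TPM. Each of these coding genes stood above its lincRNA in both libraries, by the least for Hmgn2 in replicate 2. Whether reads of the abundant gene were counted on the lincRNA was not tested.

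Without the 26 uncertain genes the others summed to 1487 TPM in replicate 1 and 1410 in replicate 2, so the library with the higher sum changed. The ratio of replicate 2 over replicate 1 was 0.949 for these genes and 1.14 for all 152. In shares of counts the ratio was 1.02 without the uncertain genes and 1.20 with them.

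Overlap of transcripts from opposite strands touched more genes than overlap on the same strand. Exons of another gene on the opposite strand overlapped 56 of the 152 genes, and in 17 they covered over 50% of the exonic bases. On the same strand 15 genes were touched and 0 reached 50%. Whether the counting used strand is not given in the sources used here, so reads of such partners cannot be told apart by their counts. For 15 of these 17 pairs both genes were measured, and in 14 the lincRNA count was not whole in a library, as happens where reads are divided between genes. In 7 of these 14 pairs the counts of lincRNA and partner added up to whole numbers in both libraries (within 0.02). Gm26718 had 82.63 and 165.21 counts and Pgam5 1343.37 and 1292.79, with sums of 1426 and 1458. The lincRNA thus held 5.79% and 11.3% of the reads of the pair. For Gm26527 and Arsb, a lysosomal sulfatase gene, the sums were 441 and 565 counts, of which Gm26527 held 10.3% and 7.49%. These sums were chosen after the values were seen.

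In the leading pair the pseudogene changed more than the lincRNA. Gm15459 lies on the strand opposite Gm26825 and overlaps 91.8% of its exonic bases. It had 854.34 counts in replicate 1 and 16.36 in replicate 2, while Gm26825 had 7617 and 15079. Gm26825 held 89.9% of the pair's counts in replicate 1 and 99.9% in replicate 2. The log2 ratio of replicate 2 over replicate 1 was 0.85 for Gm26825 and 0.70, a smaller ratio, for the sum of the pair. Gm28901 and its opposite pseudogene Gm6430 (128.1 and 18.79 counts) showed the same shift, with 82.6% and 98.2% of the pair's counts on Gm28901 and log2 ratios of 0.63 for Gm28901 and 0.39 for the sum.

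Norad, the Pumilio-binding lincRNA that GENCODE M21 lists as 2900097C17Rik (chr2:156388065-156392979, minus strand), and Gm7292 (chr6:117716342-117718868, plus strand) are near copies of each other. The 2527 bases of the Gm7292 transcript aligned over 99.9% of their length with 51.4% of the 4915 bases of 2900097C17Rik, with 9 mismatches in 2525 aligned columns (99.6% identical). The 60-base stretch with the most mismatches, positions 1450 to 1509 of 2900097C17Rik and 1423 to 1482 of Gm7292 counted from the 5′ end, shows how little separates them, with its 2 mismatches in capitals.
2900097C17Rik: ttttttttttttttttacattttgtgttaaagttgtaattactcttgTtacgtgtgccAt
Gm7292: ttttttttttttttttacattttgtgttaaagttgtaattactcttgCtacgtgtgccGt

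Levels were close too, at 40.29 and 47.65 TPM for 2900097C17Rik and 33.89 and 39.63 for Gm7292. These levels and their posterior SDs rest on unlike transcript models. The deposited transcript that held 100% of the 2900097C17Rik level was 1149 bases long, and not the 4915 bases aligned above. That of Gm7292 was 2527 bases long, as aligned. The posterior SD was 3.93% and 3.17% for 2900097C17Rik and 2.06% and 1.68% for Gm7292, under the 5% limit in both libraries. Of the 36-mers of Gm7292, 84.2% also occur in another gene, and whether reads of 1 copy were placed on the other was not tested.

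By position, the 152 genes started nearer to protein-coding genes than the other 2618 lincRNA genes of the tables. The median distance to the nearest protein-coding start was 20131 bases, against 65415. A protein-coding start lay within 1 kb for 27 genes (17.8%), against 8.21%, and beyond 100 kb for 19 (12.5%), against 39.6%. The nearest protein-coding gene was itself at 1 TPM in both libraries for 102 genes (67.1%), against 36.7%. Not all lay between protein-coding genes: 29 (19.1%) overlapped the body of one on the opposite strand, against 9.78%. On the same strand 7 did (4.61%), against 2.14%. Whether reads of overlapping genes brought such lincRNA genes to 1 TPM was not tested. These shares describe annotated genes, which are not independent samples, and carry no test. Levels of a lincRNA and its nearest protein-coding gene had a Spearman correlation of -0.16 over 150 genes measured in the same 2 libraries.

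**Figure D3:**
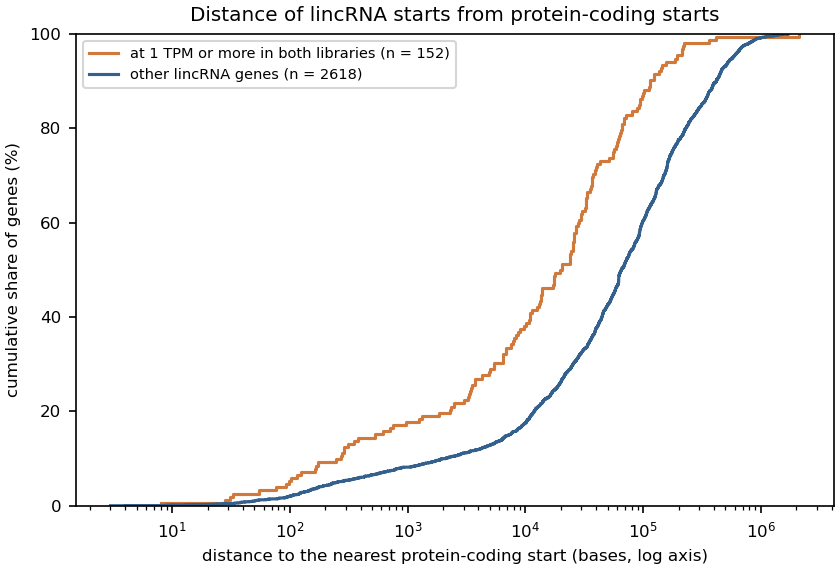
Cumulative share of lincRNA genes (y axis, percent) by distance from their start to the nearest protein-coding start (x axis, bases, log). The 152 genes at 1 TPM lie left of the other 2618 over most of the range, with medians of 20131 and 65415 bases.

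Head-to-head pairs, in which a protein-coding gene starts within 1 kb on the opposite strand, accounted for 25 of the 152 genes (16.4%), against 202 of the other lincRNA genes (7.72%). In 21 pairs the starts faced away from each other and in 4 they overlapped. The partner was at 1 TPM or more in both libraries in 25 of 25 pairs, against 125 of 202 pairs of the other lincRNA genes, with no test. Where the genes of a pair overlap, the limit on reads given above holds here too. Head-to-head pairs share a stretch of promoter between their starts. The partner was the higher gene in both libraries in 22 pairs and the lincRNA in 2, with a median of the mean TPM of 15.9 for partners and 3.60 for lincRNAs. The levels within a pair had a Spearman correlation of -0.23 over 25 pairs in the same 2 libraries.

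The pair with the highest lincRNA level was AI480526 at 14.52 and 15.29 TPM, 527 bases from Setd1b, a histone H3 lysine methyltransferase gene at 6.42 and 6.79. It was 1 of the 2 pairs in which the lincRNA stood above its partner. The other was Platr20 at 10.34 and 8.33 TPM, 55 bases from Gm12569 at 2.18 and 1.60. 4930509E16Rik was at 9.70 and 9.64 TPM against 32.63 and 36.77 for Rfx7, a transcription factor gene 382 bases away. Gm16001 was at 9.03 and 10.21 TPM against 13.99 and 15.05 for Ogfod2, 33 bases away. Gm17586 was at 9.07 and 5.44 TPM against 47.70 and 46.89 for Mafg, which encodes a small Maf transcription factor and starts 168 bases away.

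Further partners with known roles in lymphocytes or chromatin were picked by name after the values were seen. Gm11110 (4.52 and 3.10 TPM) overlaps the start of Tnfsf9, the ligand of the costimulatory receptor 4-1BB (105.00 and 105.79). 9330175E14Rik (2.24 and 2.58) overlaps that of Nlrc5, an activator of MHC class I genes (50.44 and 49.44). Partner levels exceeded the lincRNA in both libraries in each of these 2 pairs. Gm5914 (3.25 and 2.34 TPM), which overlaps the start of the insulator protein gene Ctcf (81.90 and 71.81), was uncertain, with a posterior SD of 7.62% and 8.94% and 72.5% of its exonic bases covered by Ctcf exons.

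**Figure D4:**
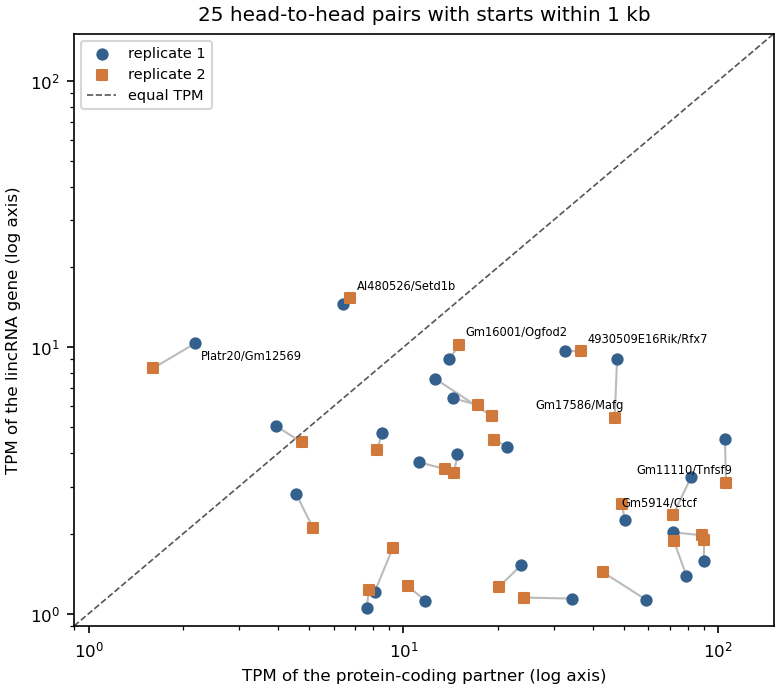
TPM of the lincRNA (y axis, log) against TPM of its protein-coding partner (x axis, log) in 25 head-to-head pairs, with replicate 1 as circles and replicate 2 as squares joined by a line, and equal levels as a dashed line. Partners are higher in 22 pairs in both libraries, and AI480526/Setd1b and Platr20/Gm12569 lie above the dashed line.

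Position near B cell genes was measured against a list of 130 genes of B cell identity and function, of which 118 were at 1 TPM in both libraries. Only 2 of the 152 genes (1.32%) started within 100 kb of the start of a listed gene, against 28 of the other 2618 lincRNA genes (1.07%), so the shares were close, with no test. Gm26792 (2.23 and 1.68 TPM; chr19:46335287-46338538, plus strand) starts 30967 bases from Nfkb2, an NF-kB subunit gene at 52.40 and 52.29 TPM on the same strand. Its nearest protein-coding start is that of Cuedc2, 3415 bases away, at 43.41 and 37.15 TPM. 2310001H17Rik (1.64 and 2.42 TPM; chr6:129208412-129238725, minus strand) starts 36711 bases from Cd69, a lymphocyte activation marker at 54.44 and 52.12 TPM, which is also its nearest protein-coding gene. Both lincRNAs lay far below their neighbours in both libraries.

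Within 500 kb the number was 11. The 9 added by the wider limit included Gm12066 at 123362 bases from Bcl11a, A330069E16Rik at 154756 from Spi1, AW112010 at 210433 from Ms4a1 (CD20) and C130071C03Rik at 217347 from Mef2c, all but Ms4a1 encoding transcription factors. Gm12066 had 7 and 12 counts and A330069E16Rik 1.12 and 1.27 TPM, so these were among the lowest of the set. AW112010 was at 2.84 and 2.03 TPM and C130071C03Rik at 1.74 and 2.20. In replicate 1 alone, without replicate 2, 4 lincRNA genes met both the level and the 100 kb limit. None of the 50 genes at 5 TPM or more lay within 100 kb of a listed gene.

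Promoters, the 250 bases before to 50 after a start, were available in the RefSeq table (GRCm38.p6) for 78 of the 152 genes (51.3%). That is under 80%, so the check is void for the full set, because no promoter was given for the others, and the values below describe the 78 alone. CpG-rich promoters (GC of at least 50% and observed over expected CpG of at least 0.6) made up 29 of 78 (37.2%). The share was 34.1% over all 27025 genes of the table, 72.2% over protein-coding genes at 1 TPM and 13.6% over lincRNA genes below 1 TPM. These comparison sets, also used for the motifs below, took the first listed start of each gene. For the 78, the RefSeq start nearest to the annotated start was taken instead. It lay within 100 bases of the annotated start for 59 of the 78, but 9856 bases away for Mir155hg and 73414 for Gm14005. Of these 59 promoters, 23 were CpG-rich (39.0%). Among the 78, 12 of 17 head-to-head genes (70.6%) and 17 of 61 others (27.9%) were CpG-rich, with no test.

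The 6 motifs were searched as exact letters on both strands, none of which contains another, and the share of all 27025 promoters is given beside each. CCGGAAG, the core bound by ETS factors, was in 17 of 78 (21.8%) against 9.12%, and in 21% of protein-coding genes at 1 TPM. Of the 59 promoters with a start within 100 bases of the annotated start, 15 held it (25.4%). The windows of BC002059 and Gm6712, both among the 17, share long stretches of sequence, so they may not be separate occurrences. Their likeness was not measured. TATAAA, the letters of the TATA box, was in 7 (8.97%) against 14.2%, at any place in the window. It began at -33 in 2610035D17Rik, and in the other promoters between -237 and -131 or at 32 and 36 from the RefSeq start. GCGCATGC, an NRF1 core, was in 2 (2.56%) against 2.80%. The NF-kB-like GGGAATTCC and GGGACTTTC were in 0 of 78, against 0.222% and 0.344%. With shares this low over all promoters, 78 promoters are too few to read anything from 0 matches. ATGCAAAT, the octamer bound by the Oct factors that drive immunoglobulin genes, was in 8 of 78 (10.3%) against 1.75%, in 1.38% of protein-coding genes at 1 TPM and in 1.24% of lincRNA genes below 1 TPM. It read forward in 8 of 8, against 232 forward and 248 reverse among the 474 promoters with the octamer over all genes, 6 of which held both. A match is a description and not a measured binding site.

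Of the 8 octamer promoters 5 had a RefSeq start within 100 bases of the GENCODE start (5 of 59 such promoters, 8.47%) and are printed because, of the motifs found, the octamer had the share that differed most in ratio from that of all promoters. Each is 5′ to 3′ in the direction of the gene, with matches to any of the 6 motifs in capitals.
2700038G22Rik (chr5:23850347-23850646, plus strand): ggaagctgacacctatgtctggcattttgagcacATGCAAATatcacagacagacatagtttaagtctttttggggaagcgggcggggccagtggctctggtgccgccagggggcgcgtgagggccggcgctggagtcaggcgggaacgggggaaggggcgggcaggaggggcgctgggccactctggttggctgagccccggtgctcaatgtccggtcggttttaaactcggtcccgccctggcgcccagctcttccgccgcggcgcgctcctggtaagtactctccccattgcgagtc
4833407H14Rik (chr19:53460372-53460671, plus strand): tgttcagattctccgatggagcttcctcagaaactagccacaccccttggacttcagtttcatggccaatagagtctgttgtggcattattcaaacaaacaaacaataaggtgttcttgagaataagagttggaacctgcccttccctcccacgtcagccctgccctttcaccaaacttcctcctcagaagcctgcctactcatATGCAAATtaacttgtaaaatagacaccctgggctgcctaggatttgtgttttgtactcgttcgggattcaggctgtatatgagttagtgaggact
Gm10451 (chr12:76444247-76444546, plus strand): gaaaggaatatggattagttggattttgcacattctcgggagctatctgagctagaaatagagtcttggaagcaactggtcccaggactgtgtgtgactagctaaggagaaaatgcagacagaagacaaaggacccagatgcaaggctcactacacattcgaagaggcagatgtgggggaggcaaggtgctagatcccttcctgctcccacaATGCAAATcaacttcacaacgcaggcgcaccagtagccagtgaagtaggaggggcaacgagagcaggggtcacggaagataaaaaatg
Gm20939 (chr17:94864651-94864950, plus strand): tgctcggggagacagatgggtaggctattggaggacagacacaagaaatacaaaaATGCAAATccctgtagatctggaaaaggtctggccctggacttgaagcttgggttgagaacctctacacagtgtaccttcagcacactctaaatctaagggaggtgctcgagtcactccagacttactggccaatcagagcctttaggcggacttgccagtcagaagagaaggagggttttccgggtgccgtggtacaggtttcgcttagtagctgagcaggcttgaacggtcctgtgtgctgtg
Gm21814 (chr6:149565832-149566131, plus strand): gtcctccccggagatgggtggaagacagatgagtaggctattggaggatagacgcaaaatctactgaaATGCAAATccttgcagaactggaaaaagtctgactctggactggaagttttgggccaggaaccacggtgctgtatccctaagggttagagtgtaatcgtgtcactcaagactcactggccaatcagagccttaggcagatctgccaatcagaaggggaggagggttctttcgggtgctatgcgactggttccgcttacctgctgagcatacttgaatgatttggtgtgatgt

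The octamer began at -216 in 2700038G22Rik, -46 in 4833407H14Rik, -38 in Gm10451, -195 in Gm20939 and -182 in Gm21814, counted from the RefSeq start. The promoters of Gm20939 and Gm21814 resemble each other, with 226 identical bases in 280 aligned (75.3% of the window), whereas no other pair among the 8 exceeded 61.0%. These related windows, on chromosomes 17 and 6, are not separate occurrences of the octamer, but both were counted in the octamer shares and orientation above. No share with this pair counted once was computed. Gm10451 was at 18.61 and 16.60 TPM, while its nearest protein-coding gene Ppp1r36 was at 0.04 in both libraries. 2700038G22Rik, the Snord93 host, was at 27.25 and 26.80 TPM and 4833407H14Rik at 5.45 and 3.99. Gm20939 was at 4.48 and 4.46 TPM and Gm21814, which was uncertain, at 3.32 and 2.04. None of these 5 genes reached 50 TPM. The other 3, D230017M19Rik, Gm12066 and Tmem250-ps, had RefSeq starts farther from the annotated start.

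In structure the 152 genes had a median of 3 exons, as had the other lincRNA genes, and 13 (8.55%) had a single exon, against 4.66%. Their median span was 6818 bases against 4391 and their median annotated length 1123 against 853. Of the 152 genes 86 had 1 measured transcript and 66 had several, up to 12. The leading transcript was the same in both libraries in 54 of these 66. It held 88.68% and 88.95% of the expression of Lncenc1, 72.38% and 61.74% of Snhg6 and 99.04% and 100% of Mir155hg in replicates 1 and 2. In Platr20, with 2 transcripts, the leader changed: the transcript with 51.79% in replicate 1 held 35.38% in replicate 2. In Gm42743, a transcript named for a histone H2B gene, Hist2h2bb-201, held 100% and 98.16% (1.21 and 3.04 TPM). The type lincRNA of Gm42743 is that of the annotation, and whether this transcript encodes a protein was not tested.

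Levels of the 152 genes in the 2 libraries had a Pearson correlation of 0.97 on the log2 scale and a Spearman correlation of 0.92, over genes of the same 2 libraries. Counts were compared by a two-sided exact binomial test against effective library sizes, with Benjamini-Hochberg adjustment over 15340 genes. The test holds counting error only, and the libraries differed by more than that, as a chi-square per degree of freedom of 33.2 shows, with a coefficient of variation of 19.8% over all genes. By this test 28 of the 152 genes differed (18.4%), against 30.6% of all 15340 genes. Replicate 2 was higher in 17, against 14.6% of all genes, and lower in 11, against 15.9%. The 152 genes were chosen on the TPM of both libraries, so nothing is read from these shares. Their median log2 ratio of replicate 2 over replicate 1 was 0.04, against 0.00 over all genes tested, and 115 of the 152 lay within 0.5 on the log2 scale.

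The largest ratios named here are those among the 28 genes that passed the binomial test. The largest drop was in Gm14133, with 45.62 counts in replicate 1 and 11.37 in replicate 2 (log2 ratio -2.15, exact binomial adjusted p = 3.45e-06). Its posterior SD was above 5% in a library, and its 36-mers occur in 98 other genes, Gapdh among them. B230312C02Rik had 79.34 and 51.42 counts (-0.76, exact adjusted p = 0.0116) and Gm13346 255.17 and 165.61 (-0.75, exact adjusted p = 1.16e-06). On the other side stood Gm26718 (0.85, exact adjusted p = 5.65e-05), Gm26825 (0.85) and Gm17322, with 41.10 and 78.00 counts (0.78, exact adjusted p = 0.0170). Gm26718 and Gm26825 are pairs of opposite strands described above, and for Gm26718 the log2 ratio of the sum with Pgam5 was -0.10.

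Among genes of certain assignment with known roles, Lncenc1 had 3826 and 5177 counts (log2 ratio 0.30, exact adjusted p = 4.58e-21). Snhg6 had 1155 and 912 counts (-0.48, exact adjusted p = 1.16e-12), Mir142hg 382 and 268 (-0.65, exact adjusted p = 1.52e-07) and Lockd 494 and 372 (-0.55, exact adjusted p = 3.44e-07). Mir155hg was not among the 28. With edgeR's exact test, which adds the spread between the libraries as a common dispersion, 1 of the 152 genes passed, Gm14133, against 389 of 15340 (2.54%), and 2 had an unadjusted p under 0.05. The differences in Snhg6, Mir142hg, Lockd and Lncenc1 passed the test for counting error and did not pass the test that holds the spread over all genes. That spread was estimated from the same 2 libraries as 1 group, so it includes the differences it was used to test. Not passing it therefore does not decide whether these genes differed.

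**Figure D5:**
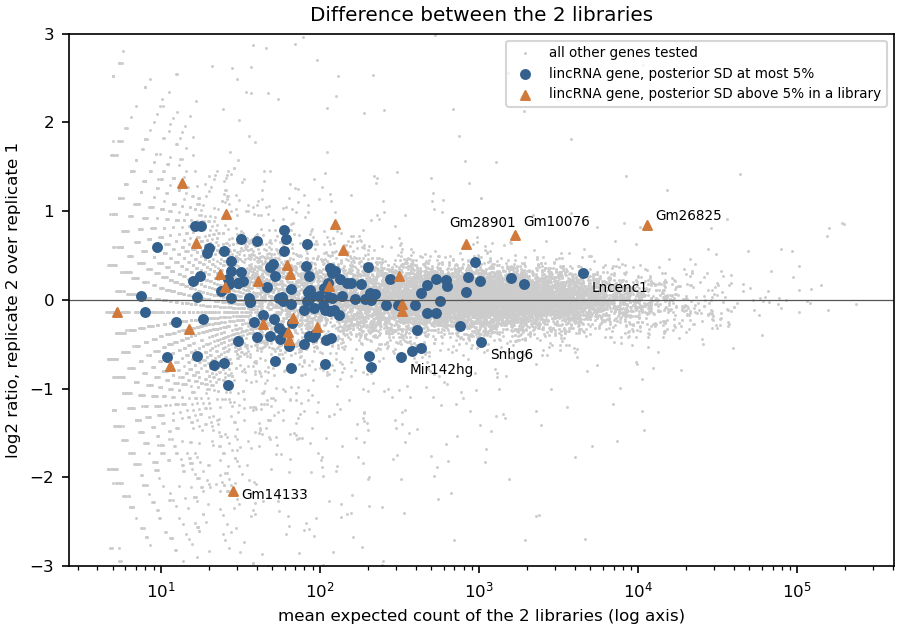
Log2 ratio of replicate 2 over replicate 1 (y axis) against the mean expected count (x axis, log) for all genes tested (grey), the lincRNA genes with posterior SD at most 5% (circles) and those above (triangles). Gm26825, Gm10076 and Gm28901 lie highest among the well-covered lincRNA genes, Gm14133 lies lowest at -2.15, and 271 grey points fall outside the axis.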

How the data were processed

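Polyadenylated RNA of CH12.LX was measured in 2 libraries of 1 group, on mm10 with GENCODE M4 per the deposited notes. For the aligner, the counting tool and whether it used strand, names and versions were not given in the sources used here. Per gene and transcript, the authors deposited expected counts (estimated reads that need not be whole), TPM and FPKM, and, per the file headers, posterior mean counts with their standard deviation, posterior mean TPM and the interval bounds of TPM. The deposited transcript tables add a percent for each transcript, its share of the expression of its gene. Read lengths were not given, and annotated minus effective length was 40 bases at the median.

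Gene names, types and coordinates come from GENCODE M21 (GRCm38), which matched 42462 of 43346 Ensembl entries (98.0%). The 26248 entries with only a number held 0.0426% and 0.0539% of the counts and were left out of all tests and library sizes. The genes, the B cell list, the known lncRNA list and the motifs were chosen with earlier results of these data known. Distances run between annotated starts. Wilson intervals are at 95% and cover counting error alone, because PCR copies of a molecule cannot be recognised in these reads.

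Expected counts were rounded and tested by a two-sided exact binomial test against TMM effective library sizes (edgeR 4.0.16, R 4.3.3), with Benjamini-Hochberg adjustment at 0.05 over 15340 genes with at least 10 summed counts. Log2 ratios used a pseudocount of 0.5. Alternatives were DESeq2 1.42.0 size factors, library totals, edgeR's exact test with a common dispersion, other thresholds and distances, and each library left out. The p-values measure counting error between these libraries.

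Genes were named by rule: the 20 highest by mean TPM, those within 100 kb of a detected listed B cell gene, the 5 head-to-head pairs of highest level, small RNA hosts, the 5 largest posterior SDs, of those that passed the binomial test the 3 with the largest ratios each way, known lncRNAs, and the 3 genes on each side of the threshold. Other genes are described as octamer, opposite-strand, Y-linked or isoform examples and were chosen after their values were seen.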

Additional observations from a re-analysis of the deposited data

How the results depend on the processing

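The 152 genes fell to 94 at 2 TPM and to 50 at 5 TPM, and numbered 170 with either library left out. Without the uncertain genes the sums were 1448 TPM and 0.115% of counts as means of both libraries, against 2313 TPM and 0.179%. The genes kept had a posterior SD of at most 5% in both libraries, and for 46 of them it was above 0. Uncertain genes were 26 above 5%, 15 above 10%, 5 above 20%, and 22 to 24 with a library left out. Of the 28 genes that differed between libraries, 1 passed edgeR's exact test with a common dispersion; library totals gave 27, of which 51.9% were higher in replicate 2, against 60.7%. Genes near listed B cell genes were 2 by the limit used, 11 at 500 kb, 4 by the nearest edges of gene bodies, 0 among genes at 5 TPM, and 2 to 4 with a library left out, the 4 without replicate 2. Head-to-head genes were 25, with 38 at 5 kb, 7 among genes at 5 TPM and 27 with either library left out. The known lncRNAs found by symbol fell from 11 to 7 at 5 TPM. The ratio of summed TPM, replicate 2 over replicate 1, turned from 1.14 to 0.949 without the uncertain genes, among them Gm26825 and Gm10076. Alternatives added after the data were seen were those for known lncRNAs, isoforms, small RNA hosts and promoter starts, and the libraries left out of the positional counts. The cause of these changes was not tested, beyond fewer genes at stricter limits. No paired analysis was possible because the libraries form 1 group. At a median of 75.5 and 79.0 counts per gene, differences under the spread between libraries were not detectable for most of these genes.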
